A study of Mus musculus with 2 samples.

Results

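The testis-specific serine kinases (TSSK) were described here through the 6 genes Tssk1, Tssk2, Tssk3, Tssk4, Tssk5 and Tssk6, found by symbol among the 20476 genes of the count table. All 6 were present and none was dropped by a filter. The data are droplet 3′ single-cell RNA counts of total testicular cells from adult mice, labelled strain C57BL/CJ;ICR. One library was labelled wild type and one miR-202-/-, a knockout of the microRNA miR-202. How many animals went into each library is not stated in the labels. Both libraries stand in 1 table whose barcode names end in 1 or 2. No label ties these endings, called marks here, to a genotype, so no genotype comparison was made, and each value is given under mark 1 and then under mark 2.

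TSSK proteins are small serine/threonine kinases of the calcium/calmodulin-dependent kinase group, close to the AMPK-related branch, and are known from haploid male germ cells. TSSK1 and TSSK2 bind and phosphorylate TSKS and act in shaping the sperm tail and its mitochondrial sheath, TSSK6 is needed for the condensation of sperm chromatin, and TSSK4 acts on the outer dense fibre protein ODF2. Spermatids first pass a round stage with active transcription, then elongate, replace histones by transition proteins and protamines, and rely on stored mRNA.

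Barcodes were sorted into 9 germ cell gates by summed UMIs of stage markers, none of which was a Tssk gene. The gates ran from undifferentiated spermatogonia (43 and 47 barcodes under the 2 marks), differentiating spermatogonia (134 and 114), early spermatocytes (130 and 101), pachytene spermatocytes (391 and 381) and diplotene or dividing spermatocytes (191 and 137) to 4 spermatid gates. These were early round spermatids (1040 and 1519), later round spermatids high for Hemgn and Fam71b (163 and 99), elongating spermatids high for Tnp1 and Tnp2 (1787 and 2054) and late elongating spermatids, low for Tnp1 and Tnp2 but high for Smcp, Oaz3, Odf1, Gapdhs and Cabs1 (1644 and 1882). Of the markers listed for a germ cell stage, some of which define its gate, between 7 of 12 (pachytene) and 14 of 14 (early spermatocytes) stood at least 2-fold above the median gate, with 6 of 10 in the later round gate. No listed marker was among the 10 leading genes of the gates of undifferentiated and differentiating spermatogonia and of early and later round spermatids. Zbtb16 stood at 121 and 134 CPM in undifferentiated spermatogonia and at or below 1.21 CPM from early spermatocytes onward. Piwil1 reached 937 and 1026 CPM in the pachytene gate. CPM means UMIs of a gene per 1000000 UMIs of all barcodes in the gate.

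Mark 1 held 12935 barcodes with a median of 6061 UMIs and mark 2 held 15310 with a median of 5509, and 73 barcode sequences occurred under both. Of the barcodes, 51.1% and 53.4% passed no gate, with medians of 4662 and 4235 UMIs. Spermatid RNA was found in barcodes of somatic cells. The 6 Tssk genes together made up 0.209% and 0.203% of UMIs in Sertoli cell barcodes, supporting cells of the tubule that should lack them. UMIs per barcode are therefore given beside the CPM of the members, with the Sertoli gate as the background measured in the same way, and for other genes where they change a call. All intervals are 95% intervals that cover counting error only. With 1 library per mark there is no test between stages. To be called higher or lower, a gene had to change by 1.5-fold or more one way under mark 1 and mark 2 alike, and to reach 50 CPM and 50 UMIs in whichever gate was higher.

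The summed share of the family was larger in each successive spermatid gate. The 6 genes together took 0.0291% and 0.0417% of all UMIs in pachytene spermatocytes, 0.213% and 0.203% in early round spermatids, 0.334% and 0.337% in later round spermatids, 0.400% and 0.403% in elongating spermatids and 0.613% and 0.592% in late elongating spermatids. Summed UMIs per barcode turned after the later round gate: they were 67.5 and 58.8 in early round, 102 and 106 in later round, 74.2 and 64.9 in elongating and 52.1 and 48.0 in late elongating spermatids, against 11.6 and 9.69 in Sertoli barcodes. The members peaked in different gates. Tssk4 and Tssk5 were highest in early round spermatids, Tssk1 in later round spermatids, Tssk2 in elongating spermatids, and Tssk3 and Tssk6 in late elongating spermatids, by CPM and under both marks.

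**Figure D1:**
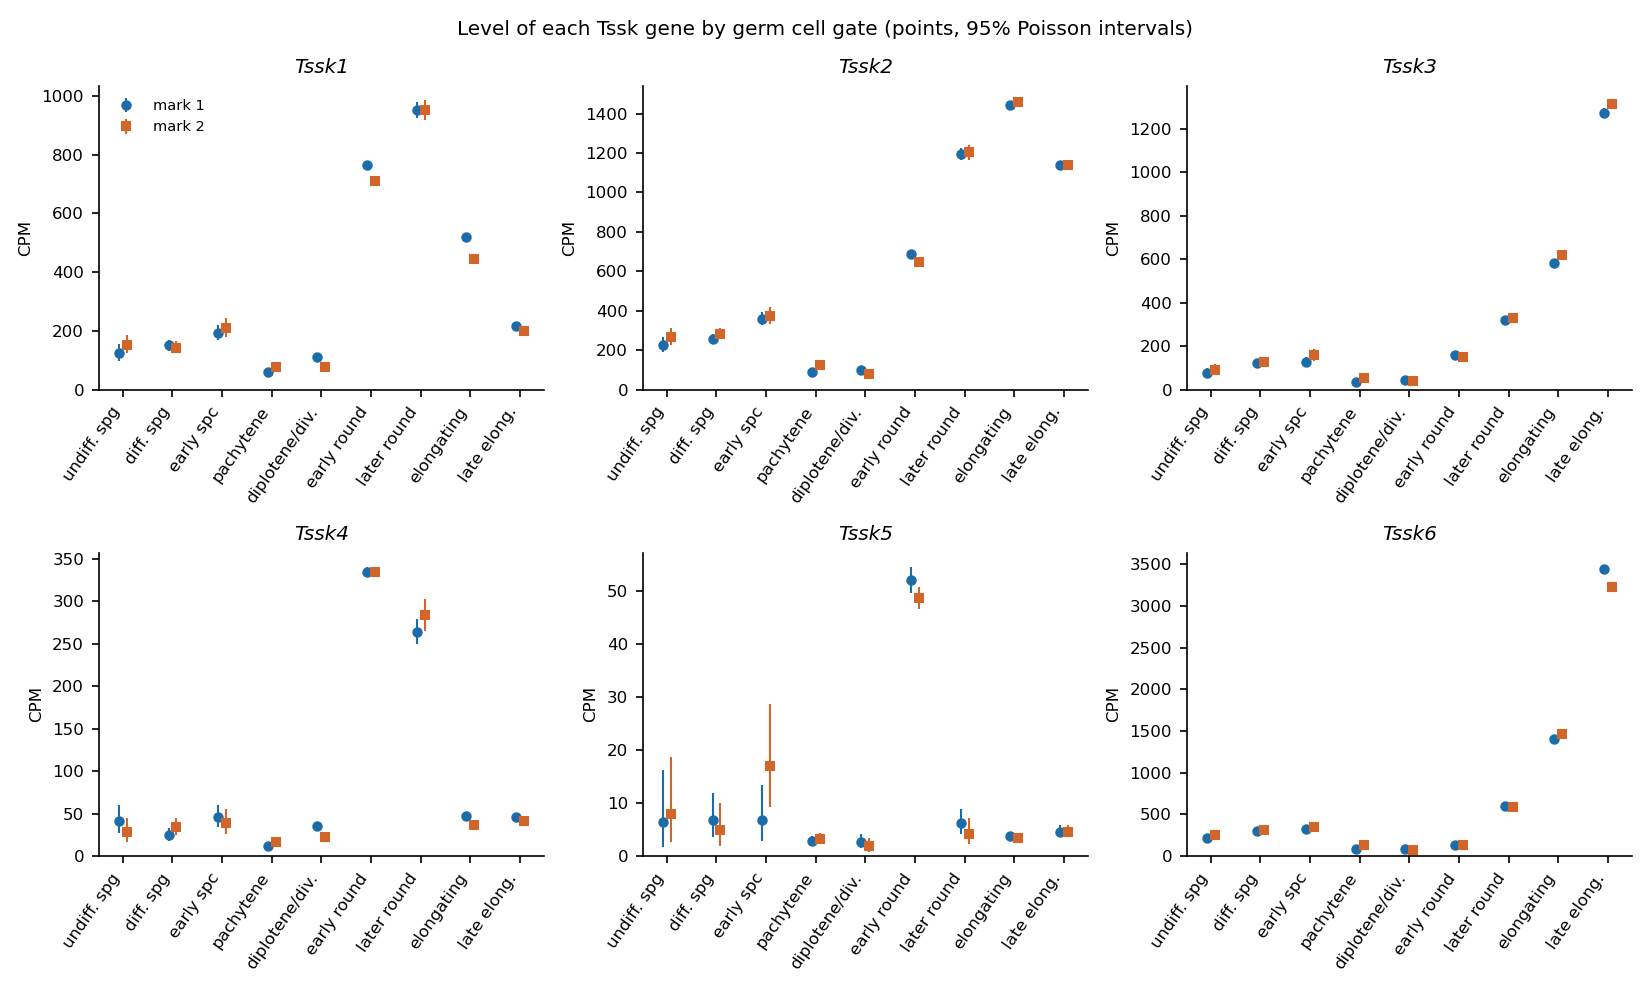
CPM of each Tssk gene (vertical axis, linear, own scale per panel) in the 9 germ cell gates, with mark 1 as circles, mark 2 as squares and bars for 95% Poisson intervals. Tssk5 peaks in early round spermatids at 52.0 and 48.6 CPM, while Tssk6 rises to 3440 and 3228 CPM in late elongating spermatids.

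Before and during meiosis, Tssk UMIs per barcode were mostly within 2-fold of the Sertoli background, with Tssk4 and Tssk5 above that in some gates. Tssk2 gave 3.63 UMIs per barcode (mean under mark 1) in diplotene or dividing spermatocytes against 3.62 in Sertoli barcodes. Under mark 2, 3.25 UMIs stood against 2.97. In the 3 gates from undifferentiated spermatogonia to early spermatocytes, the ratio to Sertoli barcodes ran from 0.705 (Tssk3, undifferentiated spermatogonia, mark 1) to 1.27 (Tssk6, differentiating spermatogonia, mark 2) over Tssk1, Tssk2, Tssk3 and Tssk6. In pachytene spermatocytes it ran from 1.04 (Tssk3, mark 1) to 1.67 (Tssk6, mark 2) over the same genes. Tssk5 stood higher there, at 3.05 times (1.78 to 5.46) and 2.25 times (1.33 to 3.93), from 0.136 and 0.121 UMIs per barcode.

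Tssk4 and Tssk1 were the members furthest above the Sertoli gate in diplotene or dividing spermatocytes by this ratio among those with intervals clear of 1 under both marks. Tssk4 stood at 2.61 times the Sertoli value (95% interval 2.16 to 3.15) and 2.33 times (1.83 to 2.97), and Tssk1 at 1.85 times (1.68 to 2.03) and 1.69 times (1.5 to 1.91). The intervals of Tssk3 held 1 there, at 0.917 to 1.21 and 0.907 to 1.26, and those of Tssk6 were 0.806 to 0.974, just below 1, and 0.900 to 1.13. Whether the remaining excess is RNA of the gated cells or free RNA was not tested.

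From differentiating against undifferentiated spermatogonia, no member was called in either direction, where 2.15% of 12017 measured genes were called higher and 1.08% lower. From early spermatocytes against differentiating spermatogonia none was called either (4.67% higher and 5.88% lower over all genes). From pachytene against early spermatocytes, Tssk1, Tssk2, Tssk3 and Tssk6 were lower by CPM, 4 of 6 members, against 9.19% of all genes (8.3% higher). The median log2 ratio of the members was -1.87 and -1.5, beside -0.48 and -0.40 over all genes. Pachytene barcodes held a median of 42138 and 33092 UMIs against 7866 and 7793 in early spermatocytes, and on UMIs per barcode all 4 genes went the other way, with Tssk1 1.56-fold higher (1.35 to 1.81) and 1.69-fold higher (1.44 to 2.0). Diplotene or dividing against pachytene spermatocytes gave no call, with 4.23% of all genes higher and 5.61% lower. Tssk4 was 2.90-fold higher there under mark 1 (2.41 to 3.49) and 1.32-fold under mark 2 (1.05 to 1.65), at 35.3 and 22.7 CPM.

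**Figure D2:**
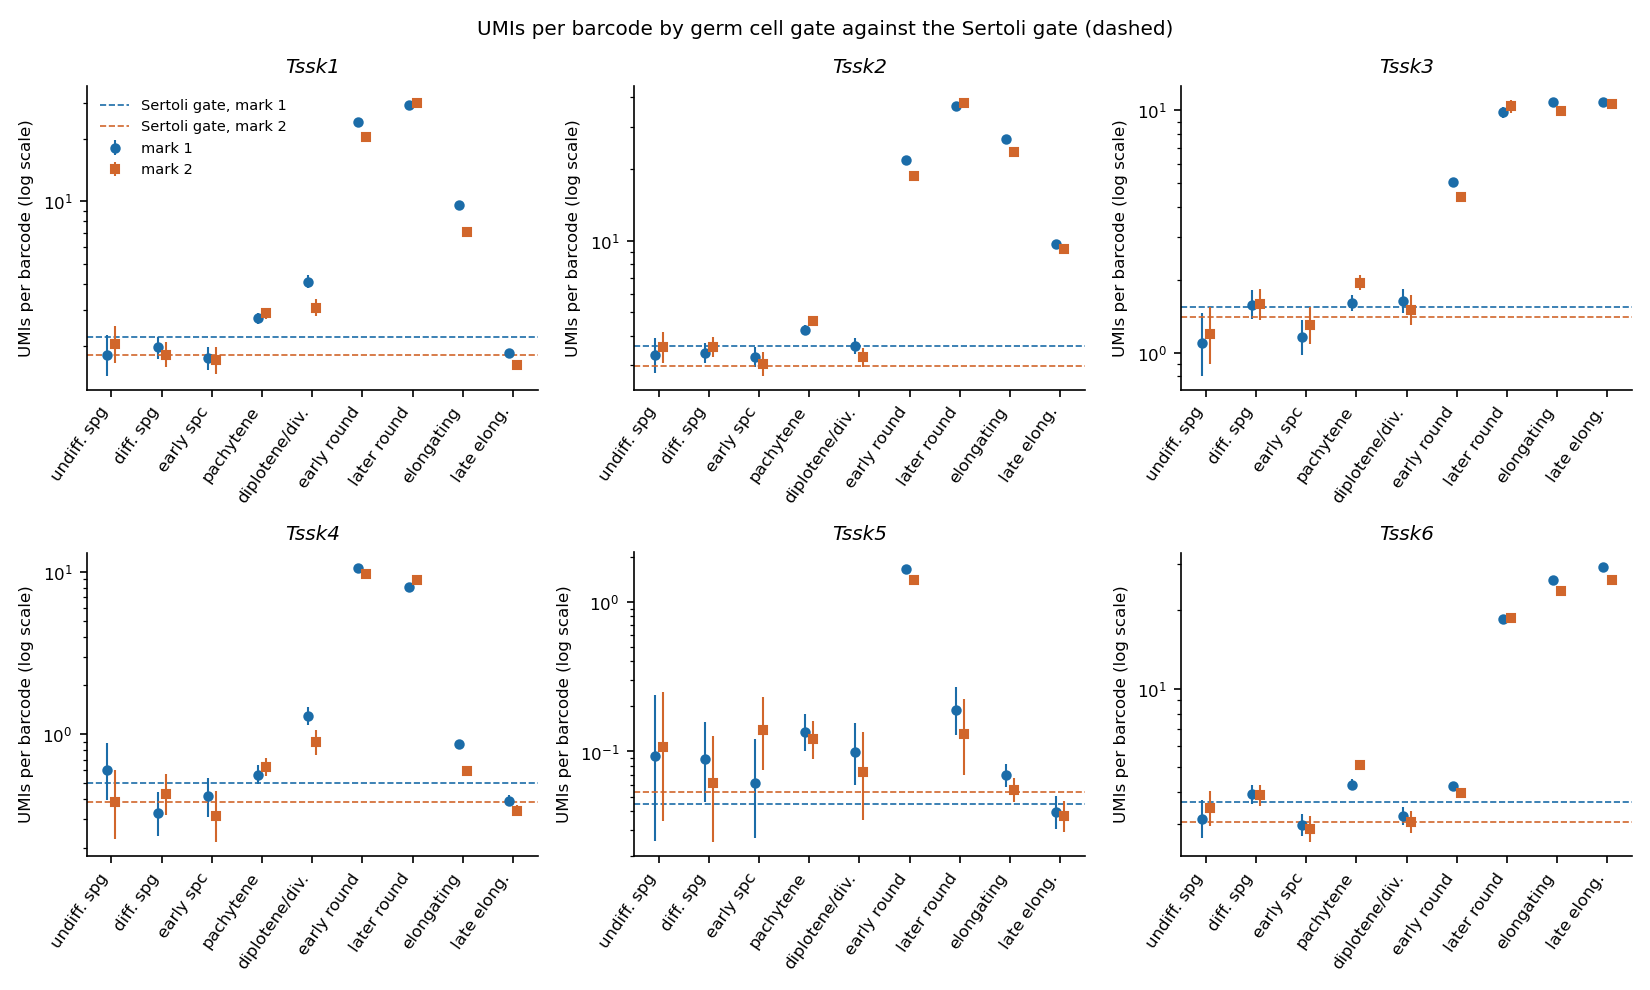
UMIs per barcode of each Tssk gene (vertical axis, log scale) in the 9 germ cell gates, with 95% Poisson intervals; dashed lines give the Sertoli gate under each mark. Up to the diplotene or dividing gate no gene exceeds 3.05 times its Sertoli value, and Tssk1, Tssk4 and Tssk5 return to about that level in late elongating spermatids.

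The passage from diplotene or dividing spermatocytes to early round spermatids was the step at which most members rose. Tssk1, Tssk2, Tssk3, Tssk4 and Tssk6 were called higher (5 of 6), where 6.95% of 16720 measured genes were higher and 7.48% lower. The sixth, Tssk5, had the largest ratio of the family and missed the call only because its level under mark 2 was 48.6 CPM. The median log2 ratio of the 6 members was 2.80 and 3.09, beside -0.29 and -0.21 over all genes. The call of Tssk6 was lost on UMIs per barcode, with means of barcode shares, with every other gate marker, with the deepest 5% of barcodes left out and with free RNA subtracted, while those of Tssk1, Tssk2, Tssk3 and Tssk4 were made under all these settings.

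Tssk5, the least studied of the 6, was a gene of early round spermatids in these data. It went from 2.69 and 1.84 CPM in the diplotene or dividing gate to 52.0 and 48.6 CPM, 19.3-fold (12.3 to 32.2) and 26.4-fold (14.3 to 55.2). It stood at 6.21 and 4.18 CPM in later round spermatids, 0.120 (0.0810 to 0.170) and 0.0860 (0.0457 to 0.147) of the early round level. That difference exceeds 1.5-fold under both marks but missed the minimum of 50 CPM under mark 2. UMIs per barcode were 1.65 and 1.41 in early round spermatids, 0.190 and 0.131 in later round, 0.0694 and 0.0555 in elongating and 0.0395 and 0.0372 in late elongating spermatids, lower at each gate, beside 0.0444 and 0.0537 in Sertoli barcodes. In early round spermatids 70.1% and 62.5% of barcodes held at least 1 Tssk5 UMI, against 3.97% and 5.12% of Sertoli barcodes, whose median depth was lower (4757 and 4178 against 27427 and 24474 UMIs). After each barcode was thinned to 3500 UMIs the shares were 16.4% and 15.9% against 2.80% and 4.88%.

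Tssk4, whose protein is known to associate with ODF2 and the transcription factor CREB, rose at the same step and fell later. It went from 35.3 and 22.7 CPM to 335 and 335 CPM, 9.49-fold (8.37 to 10.8) and 14.8-fold (12.4 to 17.8). Later round spermatids held 264 and 284 CPM, 0.789 (0.744 to 0.835) and 0.847 (0.790 to 0.907) of that, which was not a call. In elongating spermatids only 47.2 and 36.9 CPM remained, 0.179 (0.166 to 0.193) and 0.130 (0.119 to 0.142) of the later round level. Per barcode, Tssk4 counted 10.6 and 9.69 UMIs in early round, 8.09 and 8.91 in later round, 0.877 and 0.595 in elongating and 0.392 and 0.339 in late elongating spermatids. The last pair is 0.784 (0.670 to 0.919) and 0.880 (0.738 to 1.05) of the Sertoli values. The median early round barcode held 9 and 8 Tssk4 UMIs (range 0 to 59 and 0 to 69), and the median elongating barcode held 0 under both marks.

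Tssk1 and Tssk2 are neighbours on chromosome 16 (GENCODE M21, GRCm38). Tssk1 lies at chr16:17894223-17897922 and Tssk2 at chr16:17898637-17900024, both on the forward strand, each annotated as 1 exon, with 714 bases between them. All of Tssk1 lies within the span of Dgcr2 on the opposite strand. The annotated start of Dgcr2 faces that of Tssk2 across a gap of 74 bases. The Tssk2 stretch printed below fills this gap, so it lies before both genes. Whether counting used the strand is not stated, so reads of the overlapping genes may not have been told apart. Reads shared between the related Tssk1 and Tssk2 could be lost or split by the counting. For the promoters the RefSeq starts were used. For Tssk1 this is chr16:17894203, upstream of the GENCODE start, and for Tssk2 chr16:17898637, the same as in GENCODE. The sequences just before both starts are shown because these neighbours rise at the same step and then part. They are the RefSeq promoter windows (GRCm38.p6), cut to the bases before the start that touch no annotated exon, chr16:17894146-17894202 for Tssk1 and chr16:17898563-17898636 for Tssk2, forward strand, 5′ to 3′, with runs of at least 8 bases that occur in both in capitals.
Tssk1: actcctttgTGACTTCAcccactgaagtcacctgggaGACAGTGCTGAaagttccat
Tssk2: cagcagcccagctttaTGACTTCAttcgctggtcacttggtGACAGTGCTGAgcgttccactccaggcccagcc
The longer shared run, GACAGTGCTGA, starts 20 bases before the start of Tssk1 and 33 before that of Tssk2, and was found on either strand in 6 of 32851 RefSeq mouse promoters (0.0183%, 250 bases before the start). The shorter, TGACTTCA, starts 48 and 58 bases before the starts in this orientation and was found in 429 of them on either strand (1.31%). TGACTTCA is an instance of TGACNTCA, a form with 1 free base of the cAMP response element TGACGTCA, and TGACNTCA occurred in 7.49% of the promoters. Tssk1 holds a second match to TGACNTCA, which starts 35 bases before the start and stands in lower case above. The full element TGACGTCA, in 1.55% of promoters, was in none of the full windows of 250 bases of Tssk1, Tssk2, Tssk3, Tssk4 and Tssk6, which were searched whether or not they touch exons. Those of Tssk3 and Tssk6 have 0 exon-free bases next to the start. The shared runs were picked out after the sequences had been read, and they are a description of letters, not of factor binding. TGACGTCA also matches TGACNTCA and holds TGACG. Of the other motifs searched on both strands, the short form TGACG (17.8% of promoters) was found in the window of Tssk6, ACAAT, a core bound by SOX factors (27.7%), in those of Tssk3 and Tssk6, and GTTGCC, a short RFX site (10.4%), in none of the 5.

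Both neighbours rose strongly at the entry into the round stage. Tssk1 went from 111 and 77.3 CPM in the diplotene or dividing gate to 764 and 709 CPM in early round spermatids, 6.89-fold (6.42 to 7.41) and 9.17-fold (8.33 to 10.1). Tssk2 went from 98.1 and 81.9 CPM to 687 and 649 CPM, 7.0-fold (6.49 to 7.56) and 7.92-fold (7.21 to 8.72). The intervals of the 2 genes overlap under each mark.

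In later round spermatids the courses began to part. Tssk2 rose further to 1195 and 1204 CPM, 1.74-fold (1.69 to 1.79) and 1.86-fold (1.79 to 1.92), which was a call. Tssk1 reached its highest level, 952 and 952 CPM, 1.25-fold (1.21 to 1.29) and 1.34-fold (1.29 to 1.40) above early round spermatids, which was not. A later round barcode held a median of 26 and 28 Tssk1 UMIs (range 1 to 123 and 1 to 96) and 35 and 35 Tssk2 UMIs (2 to 148 and 2 to 123).

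By CPM, Tssk1 was called lower in elongating spermatids and Tssk2 was not. Tssk1 stood at 519 and 444 CPM, 0.545 (0.528 to 0.563) and 0.466 (0.448 to 0.485) of the later round level, although with TMM factors, which rest on most genes being steady, its log2 ratio was 0.12. Tssk2 stood at its highest level, 1441 and 1457 CPM, 1.21-fold (1.17 to 1.24) and 1.21-fold (1.17 to 1.25). Per barcode both were lower than in later round spermatids, Tssk1 at 9.64 and 7.15 UMIs against 29.2 and 29.9, and Tssk2 at 26.8 and 23.5 UMIs against 36.6 and 37.8. In late elongating spermatids Tssk1 was down to 219 and 199 CPM and 1.86 and 1.61 UMIs per barcode, below the Sertoli values of 2.22 and 1.81. Tssk2 stayed at 1140 and 1137 CPM and 9.70 and 9.20 UMIs, 2.68 times (2.54 to 2.82) and 3.10 times (2.92 to 3.28) the Sertoli gate.

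The share of Tssk1 among the UMIs of the pair shows the parting without any scaling by depth. It was 56.6% (55.7 to 57.5) and 54.7% (54.0 to 55.4) in the early round barcodes with lower marker share. It was 44.4% (43.4 to 45.3) and 44.2% (43.0 to 45.4) in later round spermatids, and 39.2% and 37.4% in Hemgn-high elongating spermatids. In elongating spermatids rich in late transcripts it was down to 14.5% (13.9 to 15.2) and 13.2% (12.7 to 13.8). It stayed at 14.03% to 15.6% in the next 2 substages and was 21.8% and 22.3% in the last one, whose barcodes held medians of only 4891 and 4543 UMIs. The share in Sertoli barcodes was 38.0% (36.1 to 39.9) and 37.8% (35.7 to 40.0).

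**Figure D3:**
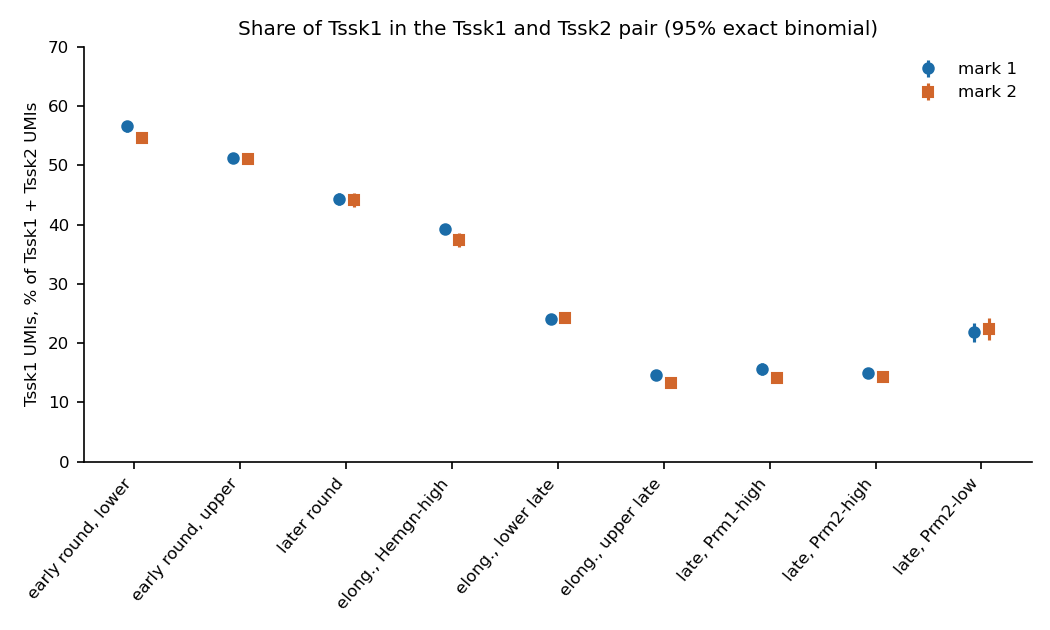
Tssk1 UMIs as a percent of Tssk1 plus Tssk2 UMIs (vertical axis) in 9 spermatid substages in assumed order of maturation, with 95% exact binomial intervals; circles are mark 1 and squares mark 2. The share goes from 56.6% and 54.7% in the first substage to 14.5% and 13.2% in the sixth.

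Tssk3, which the kinase PDPK1 is known to phosphorylate, lies on chromosome 4 at chr4:129489014-129491022, reverse strand, with 2 exons, 167 bases from Fam229a. Its level rose at every step from early round spermatids onward. It stood at 159 and 152 CPM in early round, 321 and 331 CPM in later round, 585 and 618 CPM in elongating and 1275 and 1314 CPM in late elongating spermatids. The steps were 2.01-fold (1.90 to 2.13) and 2.18-fold (2.04 to 2.32), then 1.82-fold (1.73 to 1.92) and 1.86-fold (1.75 to 1.99), then 2.18-fold (2.14 to 2.23) and 2.13-fold (2.09 to 2.17). Per barcode the count rose only to the later round stage and then stayed level: 5.05 and 4.40 UMIs in early round, 9.82 and 10.4 in later round, 10.9 and 9.95 in elongating and 10.9 and 10.6 in late elongating spermatids. The median total per barcode went from 16294 and 14555 UMIs in elongating to 7735 and 7317 in late elongating spermatids, so the CPM gain at the last step came with a steady number of Tssk3 UMIs. In Sertoli barcodes Tssk3 gave 1.55 and 1.41 UMIs.

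Tssk6 lies on chromosome 8 at chr8:69902184-69903518, forward strand, 1 exon. It overlaps Yjefn3 by 529 bases and Ndufa13 by 375 bases on the opposite strand, so the limit on overlapping genes holds here too. Tssk6 was the latest of the family to rise. In early round spermatids it stood at 133 and 138 CPM, 1.52-fold (1.40 to 1.66) and 1.77-fold (1.61 to 1.96) above the diplotene or dividing gate, with 4.23 and 3.98 UMIs per barcode against 3.65 and 3.06 in Sertoli barcodes.

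The main rise of Tssk6 came in later round spermatids, at 605 and 594 CPM, 4.54-fold (4.33 to 4.75) and 4.31-fold (4.09 to 4.55). It went on to 1402 and 1469 CPM in elongating spermatids, 2.32-fold (2.23 to 2.41) and 2.47-fold (2.36 to 2.59), and to 3440 and 3228 CPM in late elongating spermatids, 2.45-fold (2.42 to 2.49) and 2.20-fold (2.17 to 2.23). UMIs per barcode were 18.5 and 18.7 in later round, 26.0 and 23.7 in elongating and 29.3 and 26.1 in late elongating spermatids, so that most of the last CPM step again came with the smaller totals. A late elongating barcode held at least 3 Tssk6 UMIs under mark 1 and 2 under mark 2, with medians of 27 and 23 and maxima of 138 and 126. At 3500 UMIs per barcode, the mean was 0.467 and 0.519 Tssk6 UMIs in early round, 2.12 and 2.36 in later round, 4.86 and 5.12 in elongating and 12.6 and 11.7 in late elongating spermatids, beside 2.22 and 2.22 in Sertoli barcodes.

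Counting calls over these spermatid steps, Tssk2, Tssk3 and Tssk6 were higher in later than in early round spermatids (3 of 6), against 5.28% of all genes higher and 7.94% lower. The median log2 ratio was 0.56 and 0.66 for the members and -0.45 and -0.43 for all genes. From later round to elongating spermatids, Tssk3 and Tssk6 were higher (1.73% of all genes) and Tssk1 and Tssk4 lower (10.2% of all genes), with member medians of -0.23 and -0.0026 beside -0.55 and -0.61. From elongating to late elongating spermatids, Tssk3 and Tssk6 were higher (4.2% of all genes) and Tssk1 was lower (3.04%), with medians of 0.14 and 0.30 beside 0.35 and 0.35. On UMIs per barcode no member was called higher at either of the last 2 steps.

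The 4 spermatid gates were cut into 9 substages to place the peaks more closely, by the share of early round markers, of Hemgn and Fam71b, of late genes, and of the protamine genes Prm1 and Prm2. Tssk5 and Tssk4 were highest in the early round barcodes with the higher marker share, at 62.6 and 65.7 CPM and at 361 and 371 CPM. Within early round spermatids Tssk5 was 1.91-fold (1.70 to 2.15) and 2.72-fold (2.45 to 3.03) higher in that upper part, Tssk2 1.76-fold (1.71 to 1.81) and 1.62-fold (1.58 to 1.67), and Tssk6 1.14-fold (1.07 to 1.21) and 0.930-fold (0.884 to 0.979). Only Tssk6 thus lacked a common direction under the 2 marks at this step.

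Tssk1 peaked in later round spermatids and kept 95.7% and 89.9% of that level in Hemgn-high elongating spermatids, then 53.1% and 54.2% in the elongating barcodes with a lower late-gene share and 20.7% and 18.7% in those with a higher share. Tssk4 kept 24.2% and 21.7% of its peak in Hemgn-high elongating spermatids. Tssk2 peaked in the elongating barcodes with a lower late-gene share, at 1600 and 1606 CPM. Tssk3 and Tssk6 peaked in Prm2-high late elongating spermatids, at 1465 and 1549 CPM and at 3969 and 3754 CPM. On UMIs per barcode these 3 peaks lay earlier. Tssk2 was then highest in later round spermatids, at 36.6 and 37.8. Tssk3 and Tssk6 were highest in the elongating barcodes with a higher late-gene share, at 13.6 and 12.1 and at 32.5 and 29.3. Tssk1, Tssk4 and Tssk5 peaked in the same substage on both scales. In the Prm2-low late elongating barcodes Tssk6 stood at 3951 and 3494 CPM, but at 20.5 and 16.9 UMIs per barcode against 31.7 and 27.4 in the Prm2-high ones. The rise of Tssk1 by CPM at that last step, 1.61-fold (1.46 to 1.77) and 1.68-fold (1.5 to 1.86), went with 1.86 and 1.71 UMIs per barcode, below the Sertoli values.

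**Figure D4:**
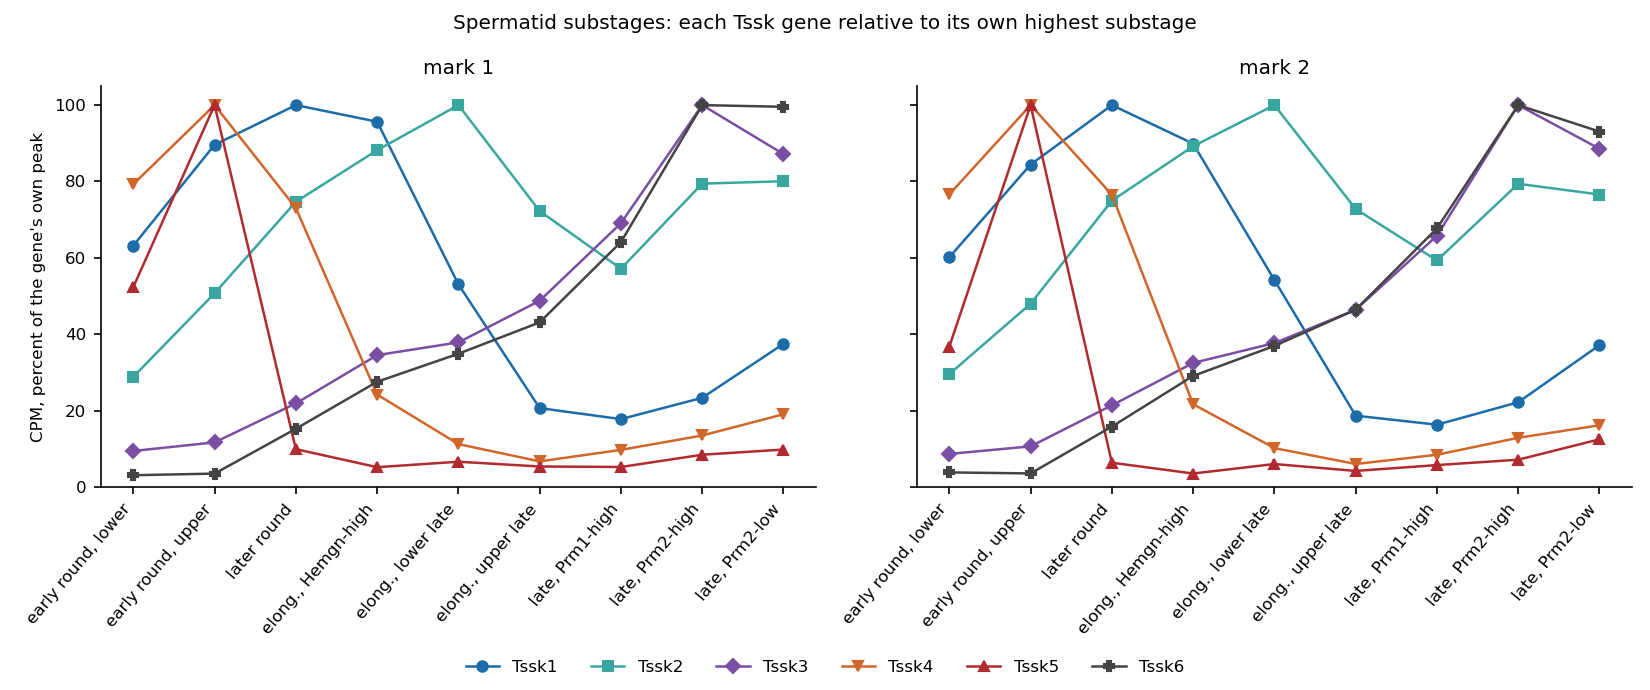
CPM of each Tssk gene as a percent of its own highest substage (vertical axis) over 9 spermatid substages in assumed order of maturation, 1 panel per mark. Peaks move from the second substage (Tssk4, Tssk5) through the third (Tssk1) and the fifth (Tssk2) to the eighth (Tssk3, Tssk6). On UMIs per barcode Tssk2 is highest in later round spermatids, and Tssk3 and Tssk6 in elongating barcodes with a higher late-gene share.

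Over the 9 germ cell gates and both marks (18 points that share libraries and free RNA), log2 CPM values of Tssk3 and Tssk6 were the most alike pair of the family, with Pearson r = 0.957. Tssk2 and Tssk3 gave 0.916, Tssk1 and Tssk4 0.891 and Tssk1 and Tssk2 0.838, while Tssk5 and Tssk6 gave -0.239. Among 6676 genes that reached 50 CPM under both marks in at least 1 of these gates, the 3 most like Tssk1 were BC049762 (0.998), Tbata (0.996) and 4930588J15Rik (0.994), and those most like Tssk2 were Fam71e1 (0.997), Ccdc54 (0.996) and 1700003F12Rik (0.996). The genes nearest to Tssk3 were Smcp (0.996), Gapdhs (0.995) and Gsg1 (0.995), the first 2 being markers of the late elongating gate. Nearest to Tssk4 were Tmem225 (0.992), Apobec4 (0.992) and Tex36 (0.989), of which Tex36 is a marker of the early round gate. For Tssk5 the likeness was looser, with 3830417A13Rik (0.940), Itgad (0.938) and 1700041C23Rik (0.931). For Tssk6 the nearest were 1700012A03Rik (0.999), Lrrc57 (0.997) and Nudt16l2 (0.996).

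Genes of known TSSK partners were followed over the same gates. Of the 12 partner and substrate genes, Tsks, Pdpk1 and Crem were higher in early round spermatids than in the diplotene or dividing gate. Hsp90aa1, Hspa2 and H2afx were lower. Over all genes 6.95% were higher and 7.48% lower at this step. Tsks, the substrate of TSSK1 and TSSK2, went from 70.2 and 58.6 CPM to 327 and 311 CPM, then 691 and 690 CPM in later round, 876 and 893 CPM in elongating and 853 and 851 CPM in late elongating spermatids. By CPM it thus peaked in the same gate as Tssk2 and 1 gate after Tssk1. Its UMIs per barcode were 21.2 and 21.7 in later round, 16.3 and 14.4 in elongating and 7.26 and 6.89 in late elongating spermatids, against 2.25 and 1.89 in Sertoli barcodes. Of the 12 genes, 2 were called higher and 5 lower in later against early round spermatids, beside 5.28% and 7.94% of all genes. In elongating spermatids 2 were called higher and 4 lower (1.73% and 10.2% of all genes). In late elongating spermatids 4 were called higher and 2 lower (4.2% and 3.04%).

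Pdpk1, whose kinase activates TSSK3, was called higher at both round steps, 2.07-fold (1.82 to 2.37) and 1.60-fold (1.38 to 1.86), then 3.65-fold (3.41 to 3.90) and 4.32-fold (3.99 to 4.69). On UMIs per barcode the first of these steps was 1.77-fold (1.56 to 2.03) and 1.17-fold (1.01 to 1.35), short of 1.5-fold under mark 2, and the second was 3.52-fold and 4.70-fold. In late elongating spermatids, where Tssk3 was highest by CPM, Pdpk1 was lower again. It stood at 60.4 and 60.1 CPM there, against 224 and 208 CPM in elongating spermatids. Tsacc, a co-chaperone that brings HSP90 to TSSK6, was present before Tssk6: it counted 20.9 and 23.9 UMIs per barcode in the diplotene or dividing gate, against 3.75 and 3.35 in Sertoli barcodes. It was called higher in elongating spermatids, at 1368 and 1522 CPM against 721 and 821 CPM, but on UMIs per barcode the step was 1.15-fold (1.11 to 1.19) and 0.951-fold (0.914 to 0.990). Odf2, which encodes the outer dense fibre protein, was higher at the same step, 1.60-fold (1.57 to 1.63) and 1.69-fold (1.65 to 1.73) by CPM and 0.969-fold and 0.865-fold on UMIs per barcode.

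The chaperone gene Hsp90aa1 went the other way, from 2381 and 2481 CPM in early round to 1121 and 1081 CPM in later round and 534 and 506 CPM in elongating spermatids. Hspa2 fell in parallel, from 1021 and 1009 CPM to 220 and 218 CPM. Both were called higher again by CPM in late elongating spermatids, at 978 and 896 CPM and at 417 and 375 CPM, but on UMIs per barcode that step was 0.839-fold and 0.890-fold for Hsp90aa1 and 0.867-fold and 0.863-fold for Hspa2. H2afx, whose product is a substrate of TSSK6, was at 20.8 and 24.4 CPM in early round and 9.10 and 10.97 CPM in elongating spermatids, with 0.169 and 0.177 UMIs per barcode there against 0.262 and 0.188 in Sertoli barcodes. Crem, a regulator of haploid gene transcription, was highest in early round spermatids at 560 and 577 CPM and at 115 and 112 CPM in elongating ones. Its early round step was 1.79-fold and 1.85-fold by CPM but 1.53-fold and 1.35-fold on UMIs per barcode, short of the call under mark 2. Spag16, an axonemal protein gene linked to TSSK2, was at 178 and 169 CPM in early round and 33.9 and 32.0 CPM in elongating spermatids.

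**Figure D5:**
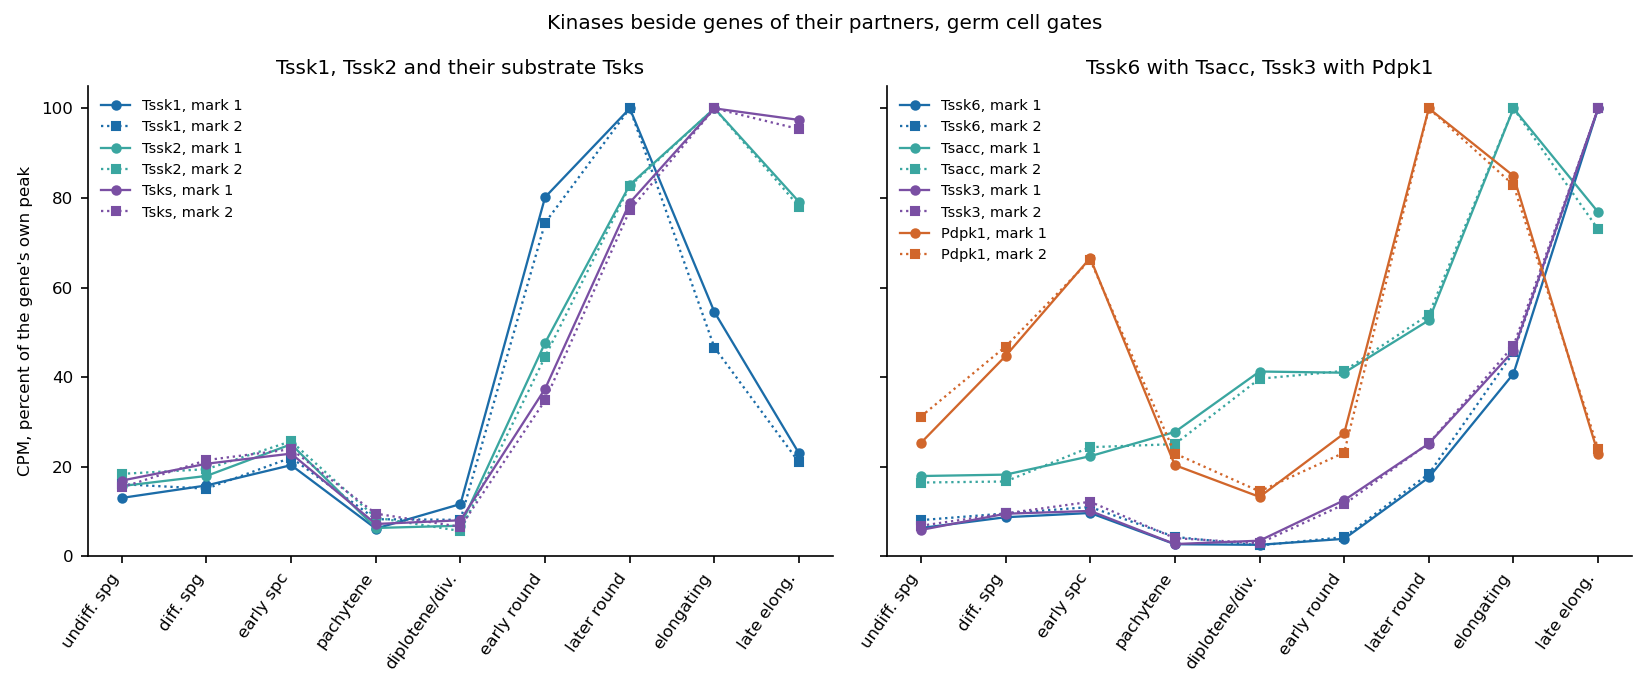
CPM as a percent of each gene's own highest germ cell gate (vertical axis) for Tssk1, Tssk2 and Tsks (left) and for Tssk6, Tsacc, Tssk3 and Pdpk1 (right); solid lines are mark 1 and dotted lines mark 2. Tsks follows Tssk2 into elongating spermatids, and Pdpk1 falls to 60.4 and 60.1 CPM where Tssk3 and Tssk6 are highest.

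Wider kinase lists were counted at the same steps. Of 17 AMPK-related kinases, 16 were measured in early round spermatids against the diplotene or dividing gate. Mark3 was the 1 called higher, at 62.0 and 56.1 CPM against 15.7 and 7.73 CPM, with none lower. Over all genes 6.95% were called higher and 7.48% lower there, so 1 of 16 lies near the share over all genes. Mark3 then fell in later round spermatids to 0.207 (0.159 to 0.265) and 0.161 (0.106 to 0.233) of its early round level. No AMPK-related kinase was called at the last 2 steps. Over all genes, 5.28% were higher and 7.94% lower at the later round step, and 1.73% and 10.2% at the elongating step. At the last step these shares were 4.2% and 3.04%. The median log2 ratio of the AMPK-related list at the early round step was -0.29 and 0.06, beside 2.80 and 3.09 for the Tssk genes. Of 14 other kinases known from testis, 13 were measured there. Hipk4 (4.16-fold and 7.75-fold), Camk4 (13.3-fold and 13.4-fold) and Mak (1.58-fold and 1.69-fold) were higher, and Stk33 and Stk31 were lower. This made 3 higher and 2 lower of 13, beside 6.95% and 7.48% of all genes. On UMIs per barcode Mak, at 1.35-fold and 1.23-fold, was short of the call. Hipk4, a kinase of round spermatids, was lower again in later round spermatids at 83.5 and 74.3 CPM against 179 and 176 CPM, while Camk4 was higher there at 107 and 103 CPM.

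Of all UMIs of each member, between 69.9% (Tssk1) and 76.3% (Tssk6) lay in the 4 spermatid gates, between 17.9% and 24.1% in barcodes that passed no gate, and between 1.09% and 1.68% in somatic gates. In the spermatid gates the ratio of mark 2 to mark 1 ran from 0.674 (Tssk5, later round, interval 0.324 to 1.33) to 1.08 (Tssk4, later round, 0.986 to 1.17). In elongating spermatids it was 0.782 (0.725 to 0.843) for Tssk4 and 0.855 (0.836 to 0.874) for Tssk1. In pachytene spermatocytes it ran from 1.13 (Tssk5) to 1.53 (Tssk3), in barcodes whose median totals differed as given above. In the diplotene or dividing gate it lay on the other side of 1, at 0.642 (0.513 to 0.800) for Tssk4 and 0.698 (0.618 to 0.786) for Tssk1, with median totals of 26509 and 35643 UMIs. Since the marks are not tied to genotypes, these ratios are no comparison of miR-202-/- with wild type.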

How the data were processed

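The deposited table holds counts, whole UMI numbers per gene and barcode, which the authors did not normalise, judged from the values. Per the submitters' processing notes, Cell Ranger 1.3.1, Seurat 3.2.2 and GRCm38 were used, and the labels' protocols describe 3′ v3.1 chemistry with debris removed by sorting. How barcodes were filtered is not stated. No barcode held fewer than 3529 UMIs.

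Barcodes were gated on summed marker UMIs and on UMIs per 10000. The markers are subsets of lists of stage markers, since several broad markers were left out, and the thresholds, the late elongating gate and the substages were set after the table had been seen. The members and lists were chosen with earlier results of these data known. Barcodes that passed more than 1 gate (177 and 206) were left out, and no doublet caller was run. UMIs were summed per gate and mark. Ratios carry exact conditional binomial intervals, levels exact Poisson intervals, and shares exact Clopper-Pearson intervals, at 95%. The marks are not replicates. A gene with at least 20 UMIs counted as measured, and listed markers were left out of the counts over all genes. Likeness is the Pearson correlation of log2(CPM + 10). Named genes are the members, the 3 most alike genes of each, the partner list, and kinases of the other lists that were called at the early round step. Kinases of these lists called only at other steps are not named. The call rule was tried on simulated Poisson counts drawn from the same profiles for both marks. These held no differences between cells or libraries beyond counting error and totals, so the trial does not cover such differences. Python 3.11.15, numpy 2.4.6, scipy 1.17.1, pandas 2.3.3, R 4.3.3 and edgeR 4.0.16 (TMM factors only) were used. Other settings tried were TMM factors, UMIs per barcode, means of barcode shares, higher thresholds, every other marker, deeper barcodes, no minimum level, free RNA subtracted, the top 5% of barcodes left out and, added after seeing the data, barcode sequences under both marks left out. Promoter windows come from RefSeq (GRCm38.p6), with entries for 5 of the 6 genes.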

Additional observations from a re-analysis of the deposited data

How the results depend on the processing

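Of 220 counts of calls under another setting, 202 stayed within 1.5 times the main count and 18 did not. The 202 include counts of 0 that stayed 0. By this rule the loss of the Tssk6 call at the early round step is no change. Of 182 ratios of the members 129 stayed within their counting intervals, 48 moved beyond them and 5 changed sign. Only ratios called in the main run were followed, and those that were not finite were left out. Ratios with no minimum level equal the main ones by design. Of 432 levels 165 moved. These include the levels on UMIs per barcode, which were set against CPM and so were bound to move. On UMIs per barcode, the members lower in pachytene against early spermatocytes went from 4 to 0 and those higher from 0 to 1 (Tssk1), with log2 ratios of 0.70 for Tssk1, 0.49 for Tssk2, 0.53 for Tssk3 and 0.67 for Tssk6. On the same scale the members higher in elongating against later round and in late elongating against elongating spermatids went from 2 to 0 in each, and those lower at the last step from 1 to 2 (Tssk1 and Tssk2). With TMM factors, the members lower in elongating against later round spermatids went from 2 to 1, with a log2 ratio of 0.12 for Tssk1, and those lower at the last step from 1 to 2. This scaling moved the median log2 ratio of all genes at the elongating step from -0.55 to 0.55, and the calls over all genes from 271 higher and 1597 lower to 1788 and 571. Tssk5 was called lower in later against early round spermatids (0 to 1) with TMM factors, free RNA subtracted, thresholds raised 1.5 times or no minimum level. With free RNA subtracted, Tssk6 was higher in differentiating spermatogonia (0 to 1) and lower in early spermatocytes (0 to 1), and the pachytene calls went from 4 to 0. Summed over 7 comparisons, calls of AMPK-related kinases went from 3 higher and 4 lower to 16 and 31 with no minimum level. Lower calls of testis kinases went from 13 to 23 with no minimum level, and higher ones from 11 to 18 with TMM factors. With no minimum level, calls over all genes rose at every step too, at the early round step from 1162 higher and 1250 lower to 5291 and 4989. With TMM factors, higher calls over all genes rose at the elongating step, as given above. They fell from 258 to 125 in differentiating against undifferentiated spermatogonia. The cause of these changes was not tested.

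No paired analysis was possible because each genotype has 1 library and no source used here ties the marks to the labels. Free RNA, estimated at 5428 and 4669 UMIs per barcode, exceeded the median of somatic barcodes (4885 and 4343), so the subtraction is rough, and a level near the Sertoli value per barcode cannot be told apart from it. The order of substages is assumed from marker genes, late spermatid gates hold few UMIs, and fewer transcripts per cell and smaller cells cannot be told apart.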
